A study of Plutella xylostella with 6 samples.

Results

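The contractile genes of muscle were examined in whole second-instar larvae of P. xylostella, the diamondback moth, with and without the plant homoterpene DMNT. A gene was taken as a member when its deposited description names muscle myosin heavy chain, a myosin light or regulatory light chain, paramyosin, flightin, muscle actin, tropomyosin, troponin, titin, twitchin or a muscle LIM protein, and names neither a kinase nor a non-muscle protein. This rule found 42 of 21946 genes and assembled loci. RNA of the whole body was sequenced in 3 control libraries and in 3 libraries of larvae given DMNT for 12 hr, and the groups follow the sample titles, since the treatment text of the labels is the same for all libraries. Strain, dose, solvent of these controls and number of larvae per library are not given in the labels, so any p here reflects only how far these libraries spread, and that spread may be technical. The total count was 39853422 to 56381123 per library.

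In a muscle fibre, thick filaments of myosin pull on thin filaments of actin within repeated units called sarcomeres. Calcium that binds troponin C moves troponin and tropomyosin on the thin filament and so frees the sites where myosin can bind. Insect thick filaments also hold paramyosin in their core, and giant elastic proteins of the titin and twitchin kind tie the filaments to the ends of the sarcomere. In a caterpillar these proteins work in the muscles of the body wall, which drive crawling, and in the muscle layer of the gut. In RNA from whole bodies, a smaller amount of muscle and less RNA per muscle cell cannot be told apart.

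Most of the RNA of the 42 genes came from a few. Levels are given first in FPKM, the authors' unit, which divides reads by exon length and depth so that genes can be compared. The mean over the 6 libraries was at least 100 FPKM in 15 genes, of which 11 were at or above 1000, and it was below 100 in the other 27. A further limit was set for the test of treatment, a mean of at least 0.5 FPKM, which 37 genes met and 5 did not. Of the 42 genes, 16 carry a gene ontology term that names muscle, sarcomere, myofibril, troponin, tropomyosin, myosin or mesoderm in the deposited annotation, 8 of them among the 15 abundant ones. The other 7 abundant genes are regulatory light chains, tropomyosin-2 and troponin C genes, whose deposited terms are broader. Where several genes share a description, reads of near-identical stretches may have been divided among them in a way the table does not show.

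Among the thin filament genes the muscle actins were the most abundant. LOC105390177, described as actin, muscle, held rank 3 among all 21946 genes by mean level, at 9279 ± 1360 FPKM in the control libraries (SD, n = 3 libraries per group here and below). The other muscle actin, LOC105387683, held rank 5, at 7178 ± 1237 FPKM. Troponin T (LOC105391471), which anchors the troponin complex on tropomyosin, was at 3743 ± 548 FPKM, and troponin I (LOC105390008), the inhibitory subunit, was at 3731 ± 336 FPKM. Their order is not resolved by this spread. Tropomyosin-2 (LOC105382792), the coiled coil that lies along actin, was at 967 ± 97.1 FPKM.

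Troponin C, the calcium sensor, was described for 7 genes, whose mean levels over all libraries ran from 0.250 to 391 FPKM. Isoform 3-like (LOC105382419) was at 379 ± 30.9 FPKM in the control libraries. The gene described simply as troponin C (LOC105388115) was at 347 ± 94.9 FPKM and isoform 1-like LOC105380237 at 233.5 ± 21.3 FPKM. The first pair of these did not differ beyond its spread. Isoform 2-like (LOC105393288) followed at 19.7 ± 3.58 FPKM, and the isoform 1-like genes LOC105386669, LOC105380238 and LOC105386667 were below 1 FPKM in their mean. LOC105380237 and LOC105380238 carry neighbouring numbers and the same description, but their mean levels over all libraries were 242 and 0.598 FPKM.

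On the thick filament, muscle myosin heavy chain (LOC105388810), the motor itself, was at 1959.9 ± 383 FPKM in the control libraries and is annotated with 39 transcripts. It held up to 1.99% of all counts of a library, the most of any member. The regulatory light chain 2-like genes LOC105381010 and LOC105395468, whose proteins wrap the neck of the myosin head, were at 7079 ± 749 and 6513 ± 682 FPKM. The myosin light chain alkali gene LOC105383858, the essential light chain, was at 6183 ± 885 FPKM. A further regulatory light chain 2-like gene, LOC105383834, was lower, at 1490.1 ± 362 FPKM. Paramyosin, long form-like (LOC105382673) stood at 1121 ± 204 FPKM. Its neighbour in the assembly, paramyosin, short form-like (LOC105382672), stood at only 1.15 ± 0.513 FPKM.

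Flightin (LOC105381607), in Drosophila a thick filament protein of the flight muscle, was at 63.9 ± 7.33 FPKM in these larvae. The muscle LIM protein Mlp84B-like (LOC105385242), in Drosophila a protein of the sarcomere's end plate, was at 368 ± 28.6 FPKM. The giant genes were lower per length. The titin with most annotated transcripts, LOC105384109 (11 transcripts), was at 50.5 ± 7.07 FPKM and twitchin-like LOC105392710 at 30.4 ± 3.50 FPKM, and the second twitchin-like gene, LOC105397031, was at 2.06 ± 0.994 FPKM.

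Some members carry names or deposited terms that are not particular to muscle. The sqh gene LOC105388071, at 42.6 ± 7.61 FPKM, has terms of myosin and so counts among the 16, but carries the name of the regulatory light chain that serves non-muscle myosin in Drosophila. LOC105385505, described as titin, carries terms of integrin binding and the extracellular matrix, and LOC105398171, also described as titin, carries terms of RNA polymerase. The paramyosin-like LOC105393151 carries terms of the centrosome and LOC105387098 one of pain perception. Myosin light chain 6B-like (LOC105398115) carries no gene ontology term, so its name rests on the description alone. It has the deposited KEGG entry K10840, and whether that entry is one of a myosin light chain was not checked. The mean levels of these members over all libraries lay between 1.0 and 51.9 FPKM, below all 15 abundant members. Some abundant members have KEGG entries too, K05692 for the muscle actins and K02183 for the troponin C genes. Whether these entries are particular to muscle was not checked. The symbols LOC105382419 and LOC105388071 also occur on further assembled loci with no description, which the rule did not take.

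**Figure D1:**
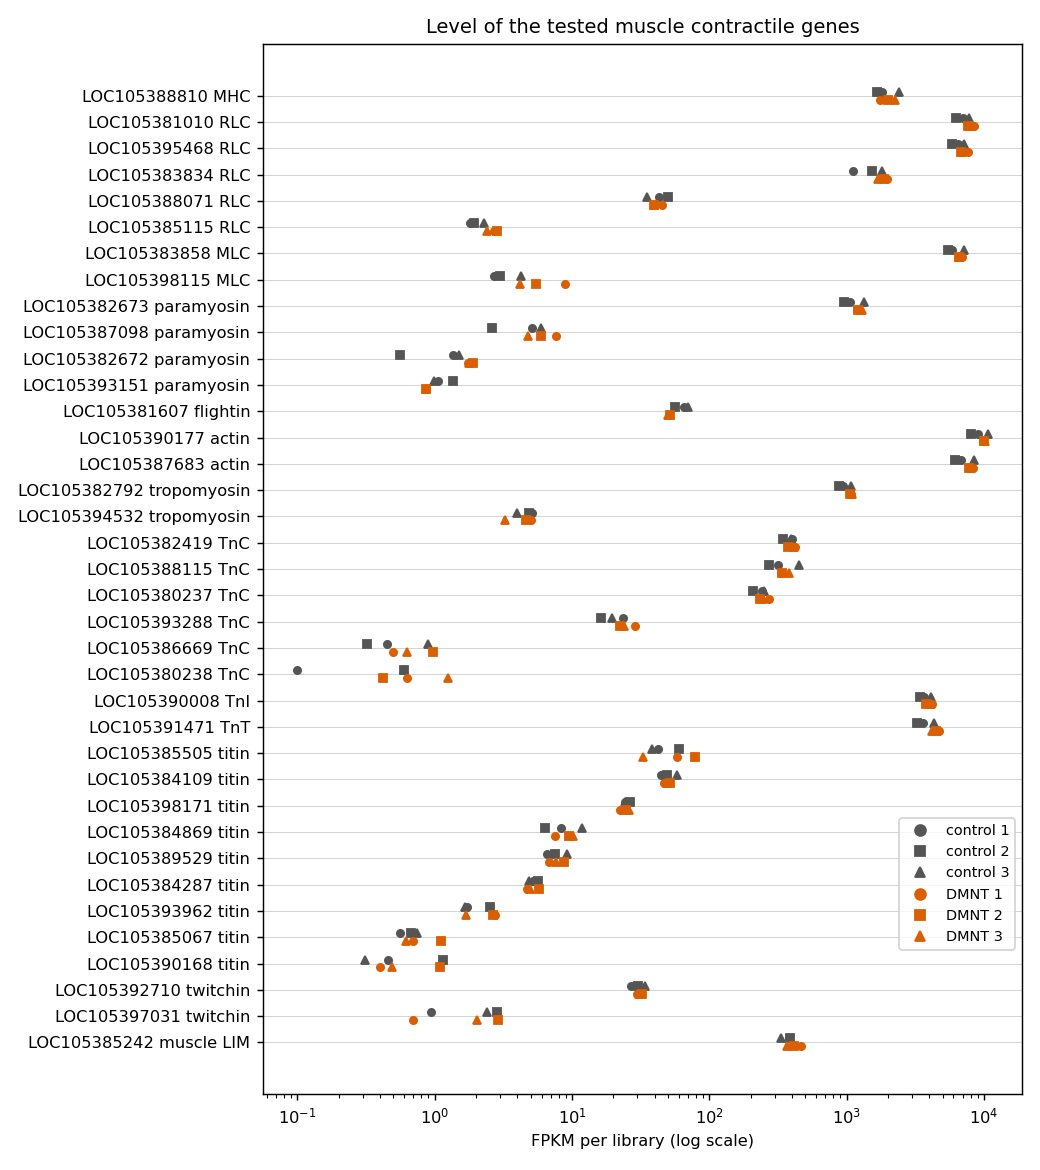
FPKM on a log scale of the 37 tested members in each library, grey for control and orange for DMNT, with the shape giving the replicate number (MHC, myosin heavy chain; RLC, regulatory light chain; MLC, other light chain; TnC, TnI and TnT, troponins). The 15 abundant genes sit at or above 100 FPKM, to the right of the other members, and the libraries of both groups lie close together in most rows.

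For the libraries as a whole, the 42 members together took 7.88%, 7.25% and 9.51% of the counts of control 1, 2 and 3. In DMNT 1, 2 and 3 they took 8.93%, 8.84% and 9.08%. Control 2 was lowest and control 3 highest, and all DMNT libraries lay between control 1 and control 3. Thick filament genes held 3.76 ± 0.582% of counts in control 1, 2 and 3 and 4.03 ± 0.149% under DMNT. Thin filament genes held 3.99 ± 0.565% and 4.44 ± 0.0918%, and the elastic and scaffold genes, with muscle LIM, 0.465 ± 0.0362% and 0.483 ± 0.0362%. All these ranges overlapped between the groups. After TMM scaling, the sum over all members was 81320 ± 15880 CPM, counts relative to the scaled library size, for the controls and 90930 ± 3071 under DMNT, a ratio of 1.118, which was 1.03 without control 2 and 1.25 without control 3.

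**Figure D2:**
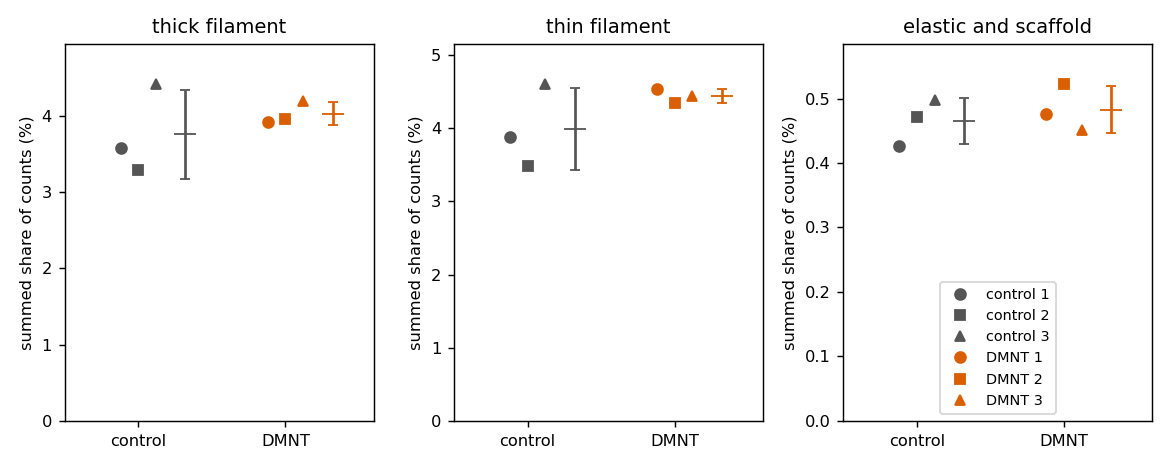
Share of each library's counts (%, axis from 0) held by the 14 thick filament, 14 thin filament and 14 elastic and scaffold members, 1 point per library, with the mean and SD of 3 libraries beside them. For the first and second class control 2 is lowest and control 3 highest, and the DMNT libraries lie between them.

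The abundant genes moved together between libraries. Control 2 had the lowest CPM in 13 of the 15 abundant members, whereas it was lowest in 32.6% of all 778 genes with a mean of at least 100 FPKM. The highest CPM fell in control 3 for 6 of them, in DMNT 1 for 6 and in DMNT 3 for 3. The spread in log2 CPM was larger among the control libraries than among the DMNT libraries in 14 of the 15, against 54.8% of the 778 genes. Over both groups, the median spread within a group was 0.20 (SD, log2 scale) for the 15 members and 0.19 for the 778 genes. Transcripts of the cuticle, which epidermal cells make, were also unevenly spread, at 1.56% of counts in control 3, 1.0% in control 2 and 0.693% in DMNT 1 (106 genes by description). Transcripts of fat body proteins ran from 0.194% in DMNT 3 to 1.17% in DMNT 2 (17 genes). Their part in the muscle values was not tested.

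Relative to myosin heavy chain in the same library, most abundant members were highest in DMNT 1. This held for 13 of 14, all but troponin C LOC105388115, which was at 0.190 in control 3 and 0.189 in DMNT 1. All these ratios share 1 divisor and are not separate observations. Myosin heavy chain was at 1753 FPKM in DMNT 1, against 2010 and 2248 in DMNT 2 and 3. In control 1, 2 and 3 it was at 1807, 1677 and 2396 FPKM. The muscle actin LOC105390177 was at 5.05, 4.77 and 4.47 times the FPKM of myosin heavy chain in control 1, 2 and 3, and at 5.65, 5.01 and 4.50 times in DMNT 1, 2 and 3. Troponin T was at 2.0, 1.95 and 1.81 times in the controls and at 2.68, 2.21 and 1.87 times in the DMNT libraries. In both genes DMNT 3 lay within the control range and DMNT 1 above it. Regulatory light chain LOC105381010 ran from 3.26 to 3.93 times in the control libraries and from 3.46 to 4.81 times in the DMNT libraries. Titin LOC105384109 and twitchin LOC105392710 were highest in control 2, at 0.0291 and 0.0180 times, and not in DMNT 1.

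**Figure D3:**
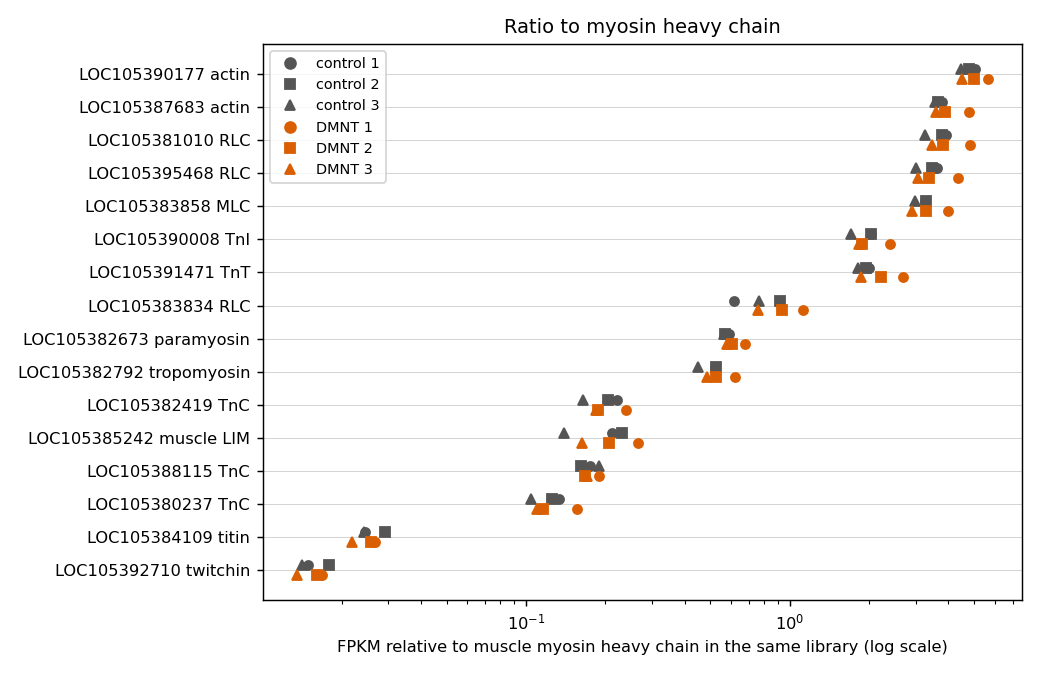
FPKM of the 14 other abundant members, titin LOC105384109 and twitchin LOC105392710 divided by that of myosin heavy chain in the same library (log axis), grey for control and orange for DMNT. DMNT 1 is the rightmost point in 13 of the 14 abundant genes, and the groups overlap in every row. The rows share the same divisor, so they are not separate observations.

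Of 20 ratios formed, including some between partners, 1 had groups that did not overlap. The regulatory light chain LOC105381010 was at 1.09 times the FPKM of LOC105395468 in each control library and at 1.10, 1.13 and 1.13 times in the DMNT libraries. The smallest p that an exact permutation test allows with 3 against 3 libraries is 0.1, so this small shift cannot pass at 0.05. The actin pair stood at 1.30 ± 0.0398 in control 1, 2 and 3 and 1.24 ± 0.0596 under DMNT, and troponin I to troponin T at 1.0 ± 0.0544 and 0.911 ± 0.0657, with overlap in both.

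After 12 hr of DMNT, 0 of the 37 tested members were called higher and 0 lower. A call needed the study's thresholds, a change of 1 or more on the log2 scale together with p under 0.05, and the unadjusted p of edgeR's quasi-likelihood test was used here, since the study does not say whether its p was adjusted. Over all 17709 genes tested the share called was 0.87%, with 0.367% higher and 0.503% lower. At an unadjusted p under 0.05 alone there was 1 member, higher, or 2.70% of those tested, against 3.43% of all genes (1.75% higher and 1.68% lower). At an adjusted p under 0.05 there were 0 members, against 0.0113% of all genes. DESeq2 called 0 members, against 0.994% of all genes, with 1 at an unadjusted p under 0.05, against 4.13%. Limma called 0 on log2(FPKM + 0.1) and on log2(FPKM + 1), against 1.06% and 0.474% of all genes. Each of these gave 2 members at an unadjusted p under 0.05, against 3.95% and 4.03%. In edgeR the log2 fold changes of the members ran from -0.33 to 0.93. They were above 0 in 33 of the 37, with a median of 0.16, where 49.4% of all genes were above 0 with a median near 0 (-0.0032). Among all 778 genes with a mean of at least 100 FPKM, 63.2% were above 0 with a median of 0.04. The 15 abundant members were all above 0, between 0.045 and 0.35 with a median of 0.17. Members share libraries and move together, so this count is not 37 separate pieces of evidence. The median of the 37 was 0.06 without control 2 and 0.29 without control 3. Without control 3, 10 members had an unadjusted p under 0.05, all higher, against 4.61% of all genes, and with the replicate number as a block it was 2 members against 5.07%.

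**Figure D4:**
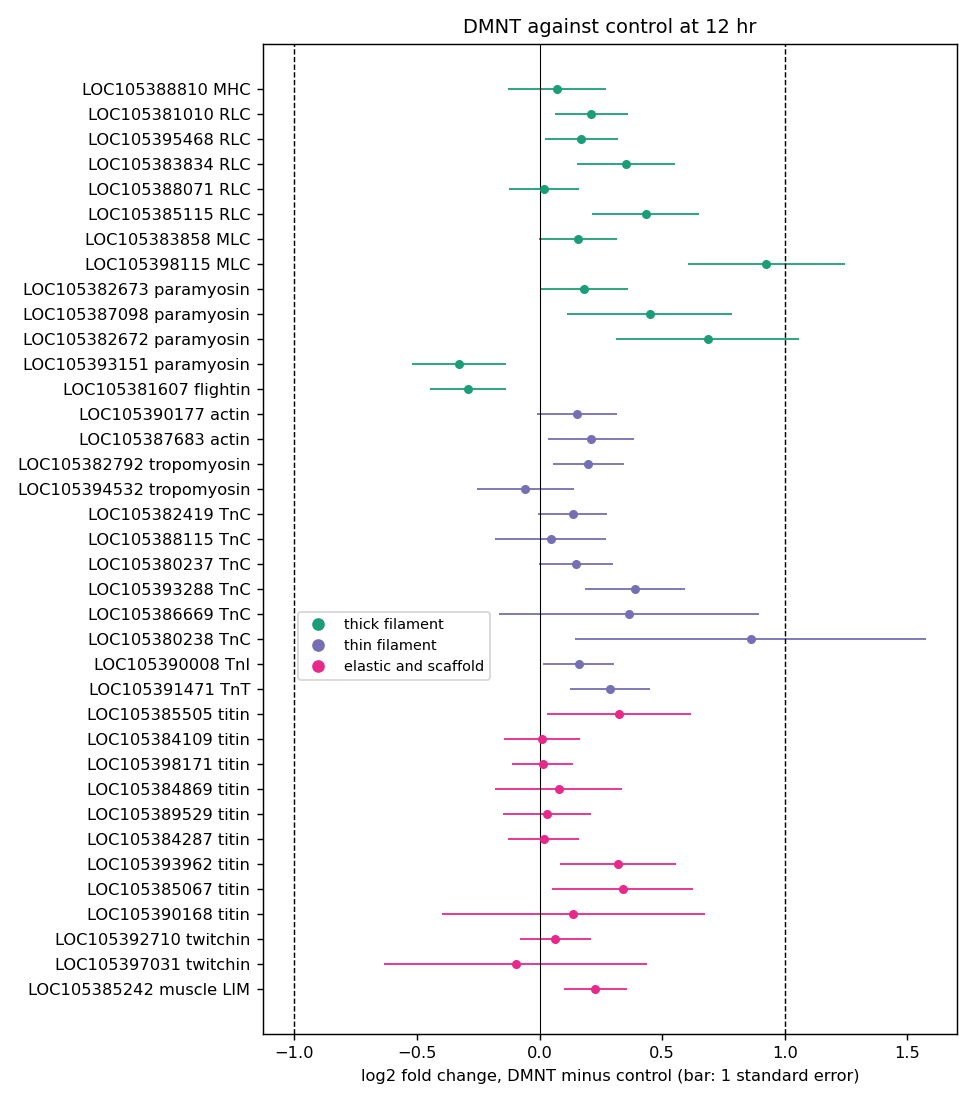
Log2 fold change, DMNT minus control, of the 37 tested members in order of role, with bars of 1 standard error from edgeR's quasi-likelihood test and dashed lines at the threshold of 1 in size. No member reaches the dashed lines, 33 points lie right of 0, and the 4 left of it are flightin, a paramyosin-like, a tropomyosin and a twitchin-like gene.

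For the thick filament, the motor was nearly level. Myosin heavy chain was at 14760.3, 13048 and 20716 CPM in control 1, 2 and 3 and at 14785, 16709.5 and 19464 in DMNT 1, 2 and 3. The control range enclosed all DMNT libraries, and the log2 fold change was 0.07 (standard error 0.20), which was -0.068 without control 2, -0.039 without DMNT 3, 0.0089 without control 1, 0.16 without DMNT 1 and 0.29 without control 3. Its regulatory light chain LOC105381010 was at 6095, 5170.0 and 7106 CPM for the controls and 7475, 6715 and 7078 under DMNT, with overlap and a log2 fold change of 0.21 (standard error 0.15). The alkali light chain LOC105383858 was at 5099, 4558 and 6613 CPM and then 6248, 5859.5 and 6029.6 CPM, all DMNT values inside the control range, with 0.16 (standard error 0.16). Paramyosin, long form-like was at 2977, 2546 and 3999 CPM in the controls and 3451, 3466 and 3876 under DMNT, again inside the control range, with 0.18 (standard error 0.18). Without control 2 and without control 3 the log2 fold change was 0.10 and 0.33 for LOC105381010, 0.04 and 0.32 for LOC105383858 and 0.04 and 0.38 for paramyosin, long form-like. The unadjusted p of these 3 genes was under 0.05 only without control 3. The regulatory light chains LOC105395468 and LOC105383834 had log2 fold changes of 0.17 and 0.35, with overlap.

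The member with the smallest p was LOC105398115, named myosin light chain 6B-like by its description alone. It stood at 3.17, 3.34 and 5.25 CPM in control 1, 2 and 3 and at 10.6, 6.50 and 5.18 CPM in DMNT 1, 2 and 3. Only DMNT 1 and DMNT 2 lay above all control libraries, and DMNT 3 lay below control 3. The log2 fold change was 0.93 (standard error 0.32, unadjusted p = 0.0207 and adjusted p = 0.9999 over all genes in edgeR's quasi-likelihood test). The unadjusted p was no longer under 0.05 without control 1, control 2 or DMNT 1, where the log2 fold change was 0.79, 0.81 and 0.58. It came to 1.19, 1.01 and 1.13 without control 3, DMNT 2 and DMNT 3, past the study's thresholds there. Myosin-9-like (LOC105397607), from the list of non-muscle actomyosin genes given below, was chosen after its values were seen. It had the same order of DMNT libraries, at 27.1, 17.9 and 16.7 CPM, against 12.8, 10.1 and 13.3 in the control libraries. The order of the control libraries was not the same, and a link between these genes was not tested.

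Groups did not overlap in 5 of the 37 members, or 13.5%, against 8.37% of all genes tested, with 3 higher (4.25% of all genes) and 2 lower (4.12%). The regulatory light chain described as smooth muscle (LOC105385115) was at 2.35, 2.38 and 3.09 CPM in control 1, 2 and 3 and 3.58, 3.69 and 3.28 under DMNT. Paramyosin, short form-like (LOC105382672) was at 2.79, 1.09 and 3.25 CPM and then at 3.67, 3.94 and 3.85 CPM. In the second gene control 2 was far below the rest, and the log2 fold change of 0.68 (standard error 0.38) was 0.34 without it and 0.97 without control 3. The first had 0.43 (standard error 0.22), and 0.57 without control 3, where the unadjusted p of both was under 0.05. The muscle LIM protein, at 820.2, 791 and 761 CPM for the controls and 1037, 908 and 833 under DMNT, was the abundant member of this set, with 0.23 (standard error 0.13), which was 0.14 without DMNT 1.

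Flightin and paramyosin-like LOC105393151 were lower in every DMNT library. Flightin was at 54.1, 43.8 and 61.1 CPM in the controls and at 43.0, 43.2 and 43.6 under DMNT. Control 2 lay barely above the DMNT libraries, which were nearly equal to each other. The log2 fold change was -0.29 (standard error 0.15, unadjusted p = 0.0933 from edgeR's quasi-likelihood test), and limma on log2(FPKM + 0.1) gave an unadjusted p of 0.0413. In edgeR the log2 fold change was -0.42 without control 2, with an unadjusted p under 0.05, and -0.18 without control 3. LOC105393151 was at 4.01, 4.83 and 3.97 CPM and then at 3.39, 3.32 and 3.49 CPM, a log2 fold change of -0.33 (standard error 0.19).

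**Figure D5:**
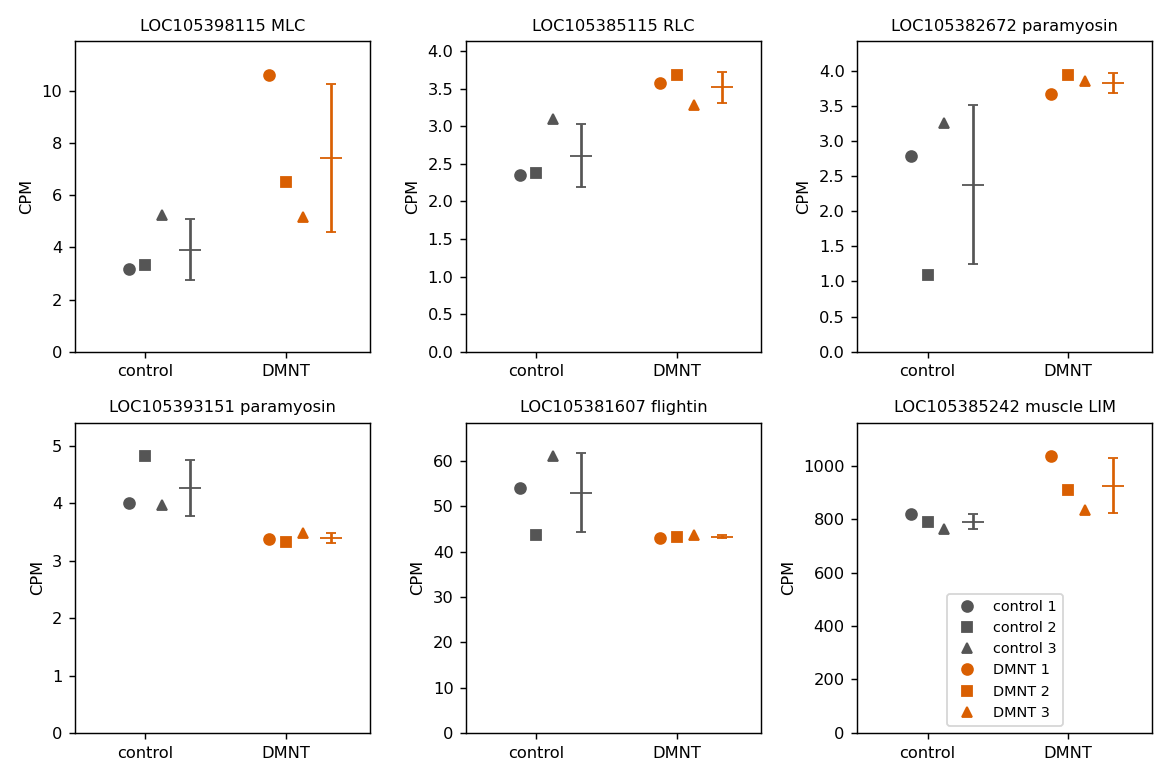
CPM in each library (axis from 0) of myosin light chain 6B-like and of the 5 members whose groups did not overlap, 1 point per library, with the mean and SD of 3 libraries beside them. Flightin and paramyosin-like LOC105393151 are lower in all DMNT libraries, the smooth muscle regulatory light chain, paramyosin, short form-like and the muscle LIM protein are higher, and myosin light chain 6B-like overlaps.

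For the thin filament, 0 of the 12 tested members were called, against 0.87% of all genes. No groups were apart, against 8.37% of all genes, and among 12 genes 0 is near both shares. The muscle actin LOC105390177 was at 13306, 11114 and 16529.7 CPM in control 1, 2 and 3 and 14897, 14959 and 15648 under DMNT. LOC105387683 was at 9985, 8516 and 13181 CPM and then at 12643, 11550.2 and 12444 CPM. In both actins every DMNT library lay between control 1 and control 3, at 0.15 (standard error 0.16) on the log2 scale for the first and 0.21 (standard error 0.17) for the second. Without control 2 these were 0.019 and 0.07, and without control 3 they were 0.31 and 0.40, the last with an unadjusted p under 0.05. Tropomyosin-2 was at 2811, 2505 and 3382 CPM for the controls and 3332, 3199 and 3449 under DMNT, with 0.20 (standard error 0.14), which was 0.10 without control 2 and 0.32, with an unadjusted p under 0.05, without control 3.

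Troponin T had the largest log2 fold change of the abundant thin filament genes, 0.29 (standard error 0.16). It was at 5664, 4861 and 7184 CPM in the controls and at 7579, 7077 and 6957 under DMNT, so control 3 lay among the DMNT values. Without control 2 the change was 0.16, and without control 3 it was 0.45 with an unadjusted p under 0.05. Troponin I was at 5618, 4985 and 6618 CPM and then at 6656, 5896 and 6679 CPM, with 0.16 (standard error 0.15), which was 0.06 without control 2 and 0.27 without control 3. For troponin C isoform 3-like (LOC105382419) the values were 339, 277 and 353 CPM in control 1, 2 and 3 and 368, 323.5 and 372 under DMNT, with 0.13 (standard error 0.14), which was 0.03 without control 2 and 0.20 without control 3. Isoform 2-like (LOC105393288) was at 15.1, 9.998 and 13.2 CPM and then at 19.2, 14.6 and 16.5 CPM, with 0.39 (standard error 0.20), which was 0.24 without control 2. Its unadjusted p was under 0.05 when the replicate number was a block, and not without it. The log2 fold changes of the other 4 tested troponin C genes ran from 0.045 to 0.86, the last with a standard error of 0.715.

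Giant and scaffold genes were closest to level, with a median log2 fold change of 0.07 over 12 tested members. Titin LOC105384109 was at 1622, 1701 and 2253 CPM for the controls and 1777, 1935 and 1901 under DMNT, with 0.01 (standard error 0.16). Twitchin LOC105392710 was at 751, 797 and 999.8 CPM and then at 849.5, 913 and 899.6 CPM, with 0.06 (standard error 0.14), which was -0.017 without control 1, 0.014 without control 2 and 0.20 without control 3. The DMNT libraries of both lay within the control range. LOC105385505, the titin with terms of the extracellular matrix, had uneven libraries in both groups, at 392, 538 and 378 CPM in the controls and 565, 751 and 323 under DMNT. Its log2 fold change was 0.32 (standard error 0.29), and it was 0.03 without DMNT 2, 0.50 without control 2, and 0.59 without DMNT 3, with an unadjusted p under 0.05 in the last alone. Titin-like LOC105393962 was at 6.04, 8.41 and 6.11 CPM and then at 9.91, 9.44 and 6.30 CPM, with 0.32 (standard error 0.23), which ran from 0.20 without DMNT 1 to 0.50 without DMNT 3.

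Another 5 members were too low to be tested. Titin-like LOC105390320 had 0, 14 and 21 counts in control 1, 2 and 3 and 0 in every DMNT library, at least 10.1-fold lower in the DMNT group against a limit of 3 counts over that group, for counting error only, but control 1 was at 0 as well. With no filter on low values this gene was the only member of 42 past the study's thresholds (unadjusted p = 0.0391 from edgeR's quasi-likelihood test). At that setting 1.11% of all 21559 genes were past them. Troponin C isoform 1-like LOC105386667 had 14, 19 and 11 counts and then 6, 4 and 0, the only untested member whose groups did not overlap in CPM. Paramyosin-like LOC105398145 had 36, 11 and 23 counts and then 24, 0 and 0, and tropomyosin alpha-4 chain-like LOC105388364 had 9, 12 and 0 counts and then 19, 0 and 0. LOC105384598, described as titin, had 6 to 25 counts in all libraries. A count of 0 allows up to 0.0522 to 0.0781 CPM in a library.

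Other genes that serve muscle, listed by words in their descriptions, were not called either. Of all genes 0.87% were called, so 0 in lists of this size is near that share. Of the Z-disc and M-line genes, which hold the filaments in place, 0 of 19 tested were called, with a median log2 fold change of 0.04. For calcium handling, which covers ryanodine receptors, calcium channels and pumps, it was 0 of 21 with a median of 0.0033. For kinases and energy supply, such as arginine kinase, it was 0 of 7 with -0.08. The list named muscle differentiation, which also takes descriptions with dystrophin, sarcoglycan or integrin beta, gave 0 of 21 with 0.04. Non-muscle actomyosin genes gave 0 of 32 with -0.07. In these 5 lists 1 gene, myosin-9-like, had an unadjusted p under 0.05 (0.0101 from edgeR's quasi-likelihood test), against 3.43% of all genes. The calcium handling genes took 0.952%, 0.906% and 1.25% of counts in control 1, 2 and 3 and 0.986%, 1.09% and 1.09% in the DMNT libraries, again lowest in control 2 and highest in control 3. The Z-disc and M-line genes had the same extremes, 0.292% and 0.348%. Control 3 was instead the lowest control for kinases and energy supply, at 0.526%, 0.516% and 0.482% in control 1, 2 and 3. It was also lowest for muscle differentiation, at 0.103%, 0.117% and 0.101%, and for non-muscle actomyosin, at 0.377%, 0.460% and 0.338%. Lists for other tissues also rest on words in descriptions, such as trypsin for midgut and dynein heavy chain or sperm for testis. Such words do not give the tissue of a gene. In these lists 3 of 100 tested midgut genes and 2 of 93 cuticle genes were called lower and 0 higher, against 0.503% lower and 0.367% higher of all genes. Of the fat body, nervous system and testis genes 0 of 10, 0 of 30 and 0 of 50 were called. At an unadjusted p under 0.05 in edgeR's quasi-likelihood test there were 3 higher and 3 lower among the midgut genes, 0 higher and 3 lower among the cuticle genes, 6 higher and 1 lower among the testis genes, and 0 in the fat body and nervous system lists, against 1.75% higher and 1.68% lower of all genes. The midgut genes called lower were few in a list that had 57% of log2 fold changes above 0. Groups did not overlap in 16 of its genes, higher, and 5, lower. Its summed level was 24860 ± 937 CPM for the controls and 27130 ± 794 under DMNT, and in this scaled measure every DMNT library was higher. As a share of counts the groups overlapped, at 2.42%, 2.73% and 2.44% in control 1, 2 and 3. In DMNT 1, 2 and 3 the share was 2.76%, 2.64% and 2.62%. The part of this list in the muscle values was not tested.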

How the data were processed

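Poly(A) RNA of whole larvae was sequenced. The authors trimmed with cutadapt, mapped with HISAT, assembled transcripts with StringTie and used edgeR, and the sources used here give no versions. Per the labels and the values, the deposited counts are unscaled whole reads per gene, and how they were counted, including strand, is not given. For the deposited FPKM the authors divided by exon length and depth. All 12 value columns were used.

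The quasi-likelihood test of edgeR 4.0.16 in R 4.3.3 was run on TMM-scaled counts of 17709 genes, those whose FPKM averaged 0.5 or more, with Benjamini-Hochberg adjustment over them all. Standard errors were derived from the fold change and its F statistic. The fit was also run on simulated data with 200 changed genes, and the outcome is not given here. All pairs of libraries differed beyond sampling noise (mean chi-square per gene 51.8 to 144.6), so none was taken as a copy. Deviations from group means of same-numbered control and DMNT libraries correlated by 0.103, 0.102 and 0.195 over genes, each over 0.1, and other numbers by -0.203 to 0.110. The unmatched control 2 and DMNT 1, at 0.110, lay above the matched values of 0.103 and 0.102. These values therefore do not single out the numbering, and a pairing rests mainly on the number in the titles.

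Named with values in every library were members with an unadjusted p under 0.05 and, in each role, the member with the highest mean FPKM and that with the smallest p. Others were chosen after their values were seen. Members and lists were chosen with earlier results of these data known. Alternatives were median-ratio scaling, no filter, a mean FPKM of at least 2, DESeq2 1.42.0, limma 3.58.1 on log2(FPKM + 0.1) and log2(FPKM + 1), the replicate number as a block, summed FPKM, and leaving out each library. No sequences are shown. Of the 42 symbols, 27 occur in a newer RefSeq annotation (ilPluXylo3.1), whose coordinates were not used.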

Additional observations from a re-analysis of the deposited data

How the results depend on the processing

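The number of members past the study's thresholds was 0. It stayed 0 with median-ratio scaling, a mean FPKM of at least 2, DESeq2, limma with either pseudocount and the replicate number as a block. The share of all genes past them ran from 0.474% to 1.06% at these settings. With no filter there was 1 member, against 1.11% of all genes. Leaving out 1 library gave 0 to 1, against 0.915% to 1.53% of all genes. Members at an unadjusted p under 0.05 were 1, and 2 with no filter, with limma on log2(FPKM + 0.1), with limma on log2(FPKM + 1) and with the replicate block, and 0 to 10 when 1 library was left out. They were 0 without control 1 or DMNT 1, 2 without DMNT 3 and 10 without control 3. Over all genes the share at an unadjusted p under 0.05 was 3.26% to 5.07% with all libraries. It was 2.17% to 4.68% when 1 library was left out. The replicate number as a block added troponin C LOC105393288 at an unadjusted p under 0.05, and it changed no member's call at the thresholds. The median log2 fold change of the members ran from 0.06 to 0.29 when 1 library was left out and from 0.12 to 0.18 under the other settings, and the ratio of summed CPM from 1.03 to 1.25 when 1 library was left out, with 1.11 for summed FPKM. When 1 library was left out, myosin heavy chain LOC105388810 ran from -0.068 without control 2 to 0.289 without control 3, with -0.039 without DMNT 3, and twitchin LOC105392710 from -0.017 without control 1 to 0.198 without control 3. All genes past the thresholds were 154 of 17709 tested, 240 of 21559 with no filter and 84 of 13456 with a mean FPKM of at least 2. Of 17709 genes they were 84 with limma on log2(FPKM + 1), and 259, 238 and 271 without control 2, control 3 and DMNT 2. The cause of these changes was not tested. The common biological coefficient of variation was 29%, and the standard errors of the abundant members ran from 0.13 to 0.23 on the log2 scale.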
